A study of Mus musculus with 19 samples.

Results

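The 6 genes described here, Mpo, Elane, Prtn3, Ctsg, Ctsc and Ms4a3, are genes of the primary (azurophil) granule programme of myeloid progenitors. They were taken by name, and each was measured through the probe sets annotated to it alone or to its older synonym. This gave 54 probe sets of 194293 on the array, with 15 for Mpo, 6 for Elane, 7 for Prtn3, 9 for Ctsg, 11 for Ctsc and 6 for Ms4a3. Per array, a gene's level is the mean log2 intensity over its probe sets, and the 6 genes stand among 15781 genes measured in this way. The Elane probe sets carry the older symbol Ela2, which the reference gene table lists as a synonym of 2 genes (Elane and Cela2a), and they were read as Elane.

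Primary granules are the first secretory granules that form as a progenitor commits to the neutrophil lineage, and their contents are made almost only during that short stage. Mpo encodes myeloperoxidase, which makes hypochlorous acid from hydrogen peroxide and chloride. Elane (neutrophil elastase), Prtn3 (proteinase 3) and Ctsg (cathepsin G) encode serine proteases that are stored in active form and released onto engulfed microbes. Ctsc encodes the lysosomal peptidase cathepsin C, which trims the proforms of these proteases and so activates them. Ms4a3 encodes a membrane protein whose transcript marks granulocyte-monocyte progenitors and their offspring.

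RNA came from 2 populations sorted from mouse bone marrow, the common myeloid progenitor (CMP) and the granulocyte-monocyte progenitor (GMP) that descends from it, and was read on 19 exon arrays after amplification of 20 ng per sample. Wild-type mice gave 3 CMP and 4 GMP arrays and Dnmt3a-/- mice 3 of each, all on the C57Bl/6J strain, and GMP came also from PR+/- (2 arrays) and PR+/- Dnmt3a-/- mice (4 arrays), for which the labels give genotype and tissue but no strain. Dnmt3a encodes an enzyme that places new methyl groups on DNA, and PR is taken to be the PML-RARA fusion of acute promyelocytic leukaemia from the title of the series, which concerns whether that fusion needs Dnmt3a to cause leukaemia. The labels give no age or sex, do not name the alleles, and leave unsaid whether arrays in the same group stem from different animals. P-values therefore measure only the spread between these samples, which may be technical. In a mouse line widely used to model this leukaemia the fusion is placed in the Ctsg gene and read from its promoter, so that in such a line the level of Ctsg is not independent of the PR+/- genotype. Whether these mice carry that allele is not known here.

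The knockout labels held. Dnmt3a was read by 31 probe sets, of which 14 had a log2 deficit above 1 in the knockout, in each of CMP, GMP and PR+/- GMP, and the gene mean lay between 5.82 and 6.49 on the Dnmt3a-/- arrays and between 7.07 and 7.65 on the others. The RNA of Fcgr3, whose protein is part of the gate that separates GMP from CMP, lay between 8.60 and 10.12 on the GMP arrays and between 5.72 and 7.80 on the CMP arrays. Wild-type CMP replicate 1 stood apart: its mean over 10 immediate early and heat shock genes (a class sensitive to how cells are handled) was 8.94 against 6.88 to 7.63 on the other CMP arrays, its mean over 7 erythroid genes was 7.98 against 6.70 to 7.56, and its mean over 6 B cell genes was 6.41 against 4.95 to 5.90. PR+/- Dnmt3a-/- GMP replicates 1 and 2 also had high immediate early levels, at 8.80 and 8.74 against 6.11 and 6.23 on replicates 3 and 4. Wild-type GMP replicates 1 and 2 were at 7.95 and 7.92 against 6.67 and 6.59 on replicates 3 and 4. These 5 arrays are the arrays of high immediate early genes left out below. PR+/- Dnmt3a-/- replicate 2 was the only array of that group with a low mean of Y-linked genes (3.12 against 6.75 to 7.01). All 6 Dnmt3a-/- CMP and GMP arrays were low in Y-linked genes (2.54 to 2.91), while 5 of the 7 wild-type arrays were high (6.84 to 7.25). The part of sex and handling in the results below was not tested except through the values given without these arrays or with a covariate. The Dnmt3a-/- arrays hardly differed in their Y-linked level, so the slope of that covariate rests mainly on the wild-type arrays. The fit with it therefore cannot separate sex from the Dnmt3a genotype.

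Mpo had the smallest spread of the 6 genes, with an SD of 0.46 over the 19 arrays against 0.51 for Ctsc and 0.99 to 1.62 for the others. Its group means ran from Dnmt3a-/- GMP (12.96 ± 0.02, SD, n = 3) through wild-type GMP (12.87 ± 0.05, n = 4), PR+/- GMP (12.80 ± 0.17, n = 2), PR+/- Dnmt3a-/- GMP (12.77 ± 0.13, n = 4) and wild-type CMP (12.52 ± 0.21, n = 3) to Dnmt3a-/- CMP (11.66 ± 0.12, n = 3). In that order the middle groups overlapped array by array, while the highest and the lowest group each stood clear of its neighbour. The highest single intensity on any array was 13.98 on the log2 scale, so Mpo lay close to the upper end of the scale on the GMP arrays.

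The 3 serine protease genes spread more widely. Elane had a mean of 12.48 ± 0.10 in Dnmt3a-/- GMP, 12.24 ± 0.10 in wild-type GMP, 12.09 ± 0.23 in PR+/- GMP, 11.72 ± 0.57 in PR+/- Dnmt3a-/- GMP, 10.70 ± 1.28 in wild-type CMP and 8.97 ± 0.70 in Dnmt3a-/- CMP. Prtn3 followed the same order of groups, from 11.86 ± 0.08 in Dnmt3a-/- GMP to 9.15 ± 0.11 in Dnmt3a-/- CMP. For Elane only the step from Dnmt3a-/- to wild-type GMP separated neighbours in the order without overlap, and for Prtn3 that step and the one between the CMP groups did. Ctsg departed from this order: Dnmt3a-/- GMP (11.89 ± 0.08), wild-type GMP (11.58 ± 0.20) and PR+/- GMP (11.49 ± 0.06) came first, but PR+/- Dnmt3a-/- GMP came last (8.31 ± 1.96), below wild-type CMP (10.77 ± 0.65) and Dnmt3a-/- CMP (9.58 ± 0.11).

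Ctsc, the gene of the activating peptidase, had its highest mean in wild-type GMP (8.53 ± 0.22), followed by GMP of the Dnmt3a-/- (8.11 ± 0.27), the PR+/- (7.87 ± 0.06) and the PR+/- Dnmt3a-/- mice (7.80 ± 0.16). Both CMP groups were lowest and overlapped, at 7.34 ± 0.08 in Dnmt3a-/- and 7.17 ± 0.21 in wild-type cells. Ms4a3 ran from 11.99 ± 0.06 in Dnmt3a-/- GMP, 11.86 ± 0.05 in PR+/- GMP, 11.48 ± 0.47 in PR+/- Dnmt3a-/- GMP and 11.47 ± 0.22 in wild-type GMP to 9.39 ± 2.10 in wild-type CMP and 8.41 ± 0.44 in Dnmt3a-/- CMP. Of the 6 genes, Ctsc alone had its highest group mean in wild-type GMP. The arrays read bulk RNA, so fewer cells that make a transcript and less of it per cell cannot be told apart.

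**Figure D1:**
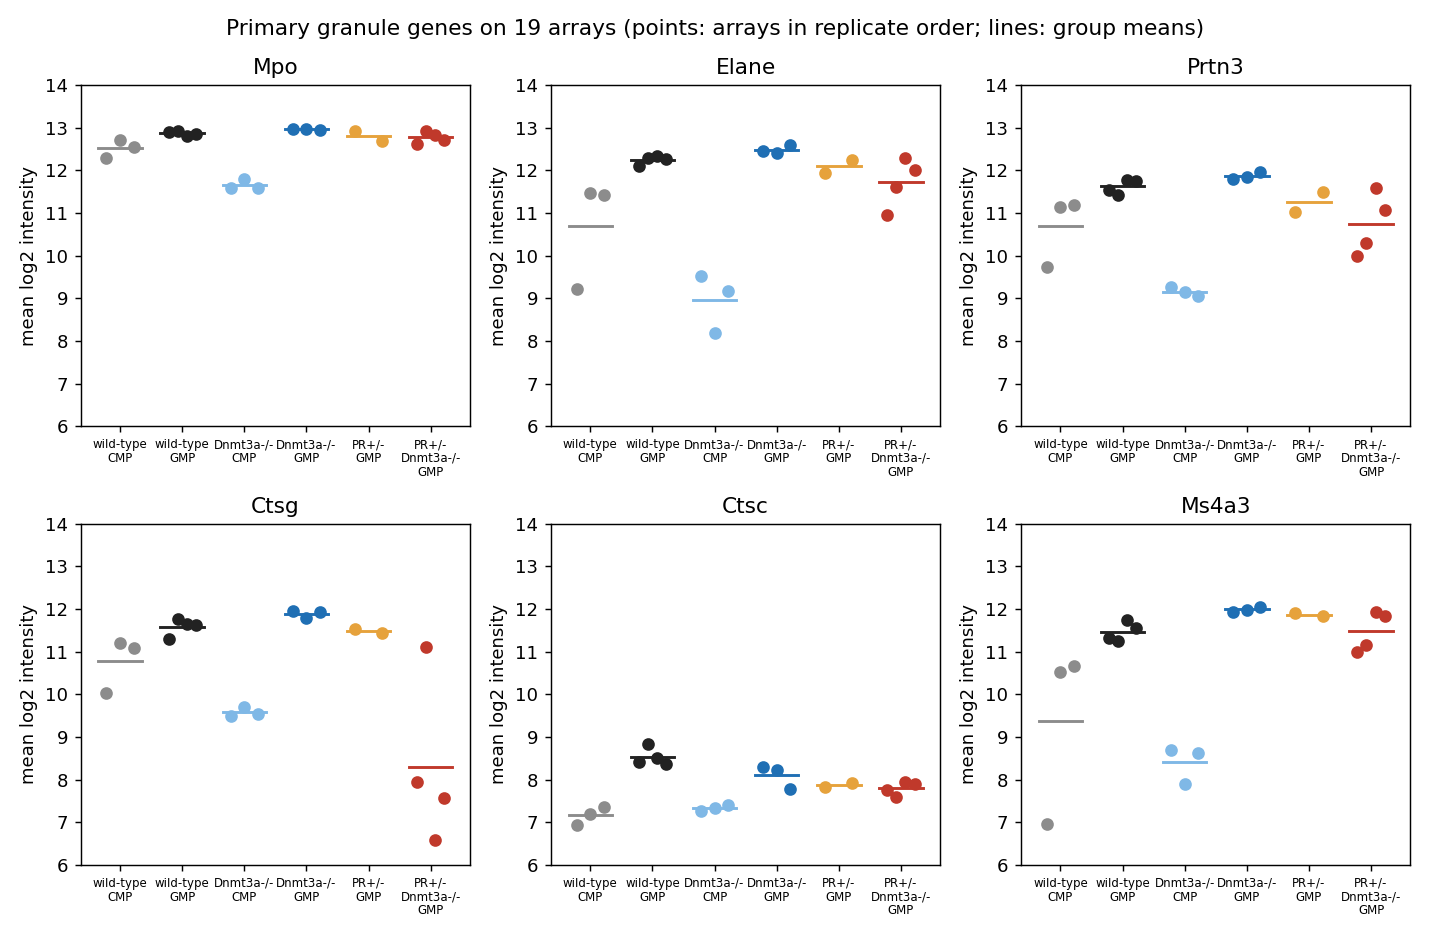
Mean log2 intensity of each of the 6 genes (vertical axis, 1 panel per gene) on each of 19 arrays, grouped by genotype and cell type, with points in replicate order and a line at each group mean. The Dnmt3a-/- CMP group has the lowest mean for Mpo, Elane, Prtn3 and Ms4a3, both CMP groups are lowest for Ctsc, and Ctsg is low on 3 of the 4 PR+/- Dnmt3a-/- GMP arrays, at 6.59 to 7.96.

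In wild-type mice all 6 genes were higher on every GMP than on every CMP array, as 7.2% of all genes were. In Dnmt3a-/- mice without the fusion all 6 were called higher in GMP, as 5.5% of all genes were. Both steps are described below. The 250 bases before the start site are shown for the 5 genes that share a motif there. The sequences are those of RefSeq on GRCm38.p6, written 5′ to 3′ on the strand of the gene. The capitals mark the 7 letters AGGAAGT, a longer form of the core bound by ETS family factors, or its reverse complement. This motif was picked after the sequences had been seen. The windows are Mpo at chr11:87793534-87793783 (plus strand), Elane at chr10:79886062-79886311 (plus), Prtn3 at chr10:79879417-79879666 (plus), Ctsg at chr14:56102575-56102824 (minus) and Ctsc at chr7:88277835-88278084 (plus).
Mpo: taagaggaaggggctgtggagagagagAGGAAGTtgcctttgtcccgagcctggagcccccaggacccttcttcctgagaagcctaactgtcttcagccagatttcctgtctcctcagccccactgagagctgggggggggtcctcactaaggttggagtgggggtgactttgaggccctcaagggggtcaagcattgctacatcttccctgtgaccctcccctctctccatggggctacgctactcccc
Elane: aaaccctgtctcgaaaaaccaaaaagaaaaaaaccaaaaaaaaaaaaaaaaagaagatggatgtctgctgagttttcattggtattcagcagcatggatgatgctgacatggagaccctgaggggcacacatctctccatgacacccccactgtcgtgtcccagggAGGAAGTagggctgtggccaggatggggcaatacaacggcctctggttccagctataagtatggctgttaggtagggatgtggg
Prtn3: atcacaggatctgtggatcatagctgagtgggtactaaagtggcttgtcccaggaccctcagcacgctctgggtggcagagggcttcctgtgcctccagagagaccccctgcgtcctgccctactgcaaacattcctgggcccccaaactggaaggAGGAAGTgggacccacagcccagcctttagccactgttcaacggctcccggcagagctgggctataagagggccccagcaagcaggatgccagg
Ctsg: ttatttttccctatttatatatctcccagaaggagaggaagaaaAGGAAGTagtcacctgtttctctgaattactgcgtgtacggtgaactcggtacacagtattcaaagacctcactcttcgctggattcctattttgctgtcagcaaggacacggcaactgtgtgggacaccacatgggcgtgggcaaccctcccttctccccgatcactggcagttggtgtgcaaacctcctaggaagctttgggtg
Ctsc: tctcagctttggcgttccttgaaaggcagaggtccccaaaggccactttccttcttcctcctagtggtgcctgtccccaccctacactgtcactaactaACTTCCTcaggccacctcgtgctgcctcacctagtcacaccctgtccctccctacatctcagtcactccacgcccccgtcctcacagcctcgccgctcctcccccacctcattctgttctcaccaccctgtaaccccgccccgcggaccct

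Relative to the start of the gene, the first base of the motif lay at -223 in Mpo, -84 in Elane, -94 in Prtn3, -206 in Ctsg and -151 in Ctsc. The full motif did not occur in the Ms4a3 window, although the shorter GGAAGT did, whose share over all windows was not computed. On either strand, the full motif was present in the windows of 5 of the 6 genes and in 7.69% of 32851 promoter windows of the same length. Since it was picked after these windows had been seen, its count among the 6 genes is no test. The C/EBP pattern TTGCNNAA was in none of the 6 windows (9.56% of all), the RUNX core TGNGGT in 2 (40.1% of all) and the MYB core TAACNG in 2 (19.8% of all). Dnmt3a acts on CpG sites, and the windows held 2 CpG for Mpo, 3 for Elane, 4 for Prtn3, 7 for Ctsg, 9 for Ctsc and 0 for Ms4a3, with a median of 6 over all promoter windows. Methylation itself was not analysed here. Prtn3 and Elane lie next to each other on chromosome 10 in the RefSeq order of genes. In Dnmt3a-/- cells the GMP minus CMP difference of the measured genes around them was 0.18 for Ptbp1, -0.01 for Misp and 1.47 for Palm on one side and 0.53 for Cfd, 0.15 for Med16 and -0.35 for R3hdm4 on the other.

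The first comparison was the step from CMP to GMP in wild-type mice. Each of the 6 genes was higher on all 4 GMP arrays than on all 3 CMP arrays, where 7.2% of all genes were placed so, but only Ctsc passed the test. Ctsc was at 6.95, 7.21 and 7.37 on the CMP arrays and at 8.41, 8.84, 8.52 and 8.37 on the GMP arrays. It rose by 1.36 ± 0.16 on the log2 scale, which is 2.57-fold (adjusted p = 7.05e-04, limma, Benjamini-Hochberg over 15781 genes), and 295 genes or 1.87% of all were called higher in this comparison. Its rise was called in each of 7 fits without 1 array.

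For the other 5 genes the CMP arrays differed among themselves. Ms4a3 was at 6.96, 10.53 and 10.67 on CMP replicates 1 to 3 and at 11.26 to 11.74 on the GMP arrays, a difference of 2.09 ± 0.65 (adjusted p = 0.102). Elane was at 9.22, 11.46 and 11.42 on the CMP arrays and at 12.10 to 12.33 on the GMP arrays, a difference of 1.54 ± 0.45 (adjusted p = 0.0768). Both genes were low on CMP replicate 1, the array with high immediate early, erythroid and B cell genes. Prtn3 was at 9.73, 11.13 and 11.19 against 11.42 to 11.78 on the GMP arrays, and its difference was 0.94 ± 0.27 (adjusted p = 0.0790). Ctsg was at 10.03, 11.21 and 11.08 against 11.30 to 11.77, and its difference was 0.81 ± 0.23 (adjusted p = 0.0698). Mpo was at 12.29, 12.71 and 12.55 against 12.81 to 12.93, with a difference of 0.35 ± 0.12 (adjusted p = 0.146). The proteases and the peroxidase were thus already near their GMP level on CMP replicates 2 and 3. Without CMP replicate 1 the differences were 0.87 for Ms4a3, 0.80 for Elane, 0.46 for Prtn3, 0.44 for Ctsg and 0.24 for Mpo, none of them called. Leaving out a CMP array with high granule genes had the opposite result: without replicate 3, Elane (1.90), Prtn3 (1.19) and Ms4a3 (2.73) were called, and without replicate 2, Elane (1.92) and Ctsg (1.03) were. The title numbers of the wild-type arrays fall into the sets 21986 to 21988 and 22003 to 22012, which the labels do not explain. Smaller changes of setting also gave calls: Mpo with 16 added to the intensity (0.35, adjusted p = 0.0499993), Prtn3 (0.98, 0.0498) and Ctsg (0.85, 0.0457) with each array centred on its median, and Ctsg with dim genes left out (0.0469). With the set as a block, Elane (1.70), Prtn3 (1.06), Ctsg (0.90), Ms4a3 (2.36) and Ctsc were called. The first set holds 1 CMP array, replicate 1, and 2 GMP arrays, and the differences of Elane, Prtn3, Ctsg and Ms4a3 there were 2.97, 1.74, 1.50 and 4.33, given as values since the CMP arm is a single array. Within the second set they were 0.86 (adjusted p = 0.301), 0.61 (0.0423), 0.49 (0.100) and 1.05 (0.0526). Markers of other lineages moved in both directions in the same comparison. Of these, 3 of 5 eosinophil genes (list mean 5.64 to 7.04 per GMP array against 3.93 to 4.92 per CMP array) and 5 of 10 basophil and mast cell genes (6.47 to 6.92 against 4.97 to 5.83) rose, while 1 of the latter list fell. In the lists of 7 erythroid, 8 megakaryocyte, 10 dendritic and 10 stem cell genes 5, 4, 8 and 5 fell and none rose, with an erythroid list mean of 5.16 to 5.57 per GMP array against 6.70 to 7.98 per CMP array. Their part in the result was not tested.

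In Dnmt3a-/- mice all 6 genes rose in the same step and passed the test, where 868 genes or 5.5% of all were called higher. For Ctsc the rise was smaller than in wild-type mice (0.77 against 1.36). Ms4a3 was at 8.70, 7.91 and 8.62 on the CMP arrays and at 11.94, 11.98 and 12.06 on the GMP arrays, a rise of 3.58 ± 0.70 or 12.0-fold (adjusted p = 0.00469). Elane was at 9.53, 8.19 and 9.18 on the CMP arrays and at 12.44, 12.41 and 12.60 on the GMP arrays, a rise of 3.52 ± 0.48 or 11.5-fold (adjusted p = 4.16e-04). For these genes the CMP and GMP arrays lay far apart, with no array in between. Prtn3 went from 9.26, 9.14 and 9.04 to 11.80, 11.83 and 11.95, a rise of 2.72 ± 0.29 or 6.57-fold (adjusted p = 9.85e-05). Ctsg went from 9.49, 9.71 and 9.54 to 11.95, 11.80 and 11.93, a rise of 2.31 ± 0.25 or 4.97-fold (adjusted p = 9.43e-05). Mpo went from 11.59, 11.80 and 11.59 to 12.97, 12.97 and 12.94, a rise of 1.30 ± 0.13 or 2.46-fold (adjusted p = 6.80e-05). Ctsc, the activating peptidase, had the smallest rise: it went from 7.26, 7.34 and 7.41 to 8.29, 8.24 and 7.79, or by 0.77 ± 0.17 (1.71-fold, adjusted p = 0.0122). Every one of the 54 probe sets had a higher mean in GMP in this step, and the same held in the wild-type step. The share over all probe sets was not computed. The call of Ctsc was lost without GMP replicate 1 (0.68, adjusted p = 0.0560), GMP replicate 2 (0.70, 0.0578) or CMP replicate 1 (0.73, 0.0514), and the other 5 genes were called without any 1 array. The title numbers of these CMP and GMP arrays alternate, from 22298 and 22299 to 22302 and 22303. Whether neighbours share an animal is not stated in the labels. With adjacent numbers as a random block (consensus correlation 0.18) the mean change of the 6 genes was 2.37, and all 6 were called. Markers of other cells moved with this step too: 8 of 8 megakaryocyte (list mean 5.86 to 6.28 per GMP array against 7.51 to 7.90 per CMP array), 9 of 10 dendritic (6.21 to 6.38 against 7.91 to 8.49), 7 of 10 stem cell (5.09 to 5.35 against 6.47 to 6.59) and 5 of 7 erythroid genes (5.52 to 5.95 against 7.30 to 7.56) fell. In the other direction 4 of 5 eosinophil and 6 of 10 basophil and mast cell genes rose (1 of that list fell), as did 1 erythroid gene. Their part in the result was not tested.

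Whether the step differed between the genotypes was tested directly. No gene of 15781 was called (0% of all; 1083 had an unadjusted p under 0.05), and no member passed. The step was larger in Dnmt3a-/- than in wild-type cells by 0.95 ± 0.18 for Mpo (adjusted p = 0.182), 1.78 ± 0.40 for Prtn3 (0.261), 1.50 ± 0.34 for Ctsg (0.261), 1.98 ± 0.66 for Elane (0.534) and 1.50 ± 0.96 for Ms4a3 (0.854). For Ctsc the difference had the other sign, -0.59 ± 0.24 (adjusted p = 0.632). Array weights gave calls for Mpo (1.07), Prtn3 (1.99) and Ctsg (1.71), each with adjusted p = 0.00899. Without wild-type CMP replicate 1, 23 genes were called, among them Prtn3 (2.25 ± 0.19, adjusted p = 8.76e-04), Ctsg (1.87, 0.00262), Ms4a3 (2.71, 0.00262), Elane (2.72, 0.0150) and Mpo (1.06, 0.0328). The granule genes were low on that array, so leaving it out widens the difference. Each of these members was called in this 1 of 13 fits without 1 array and in none of the other 12. There the adjusted p reached 0.439 for Mpo and 0.994 for Ms4a3 (limma).

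**Figure D2:**
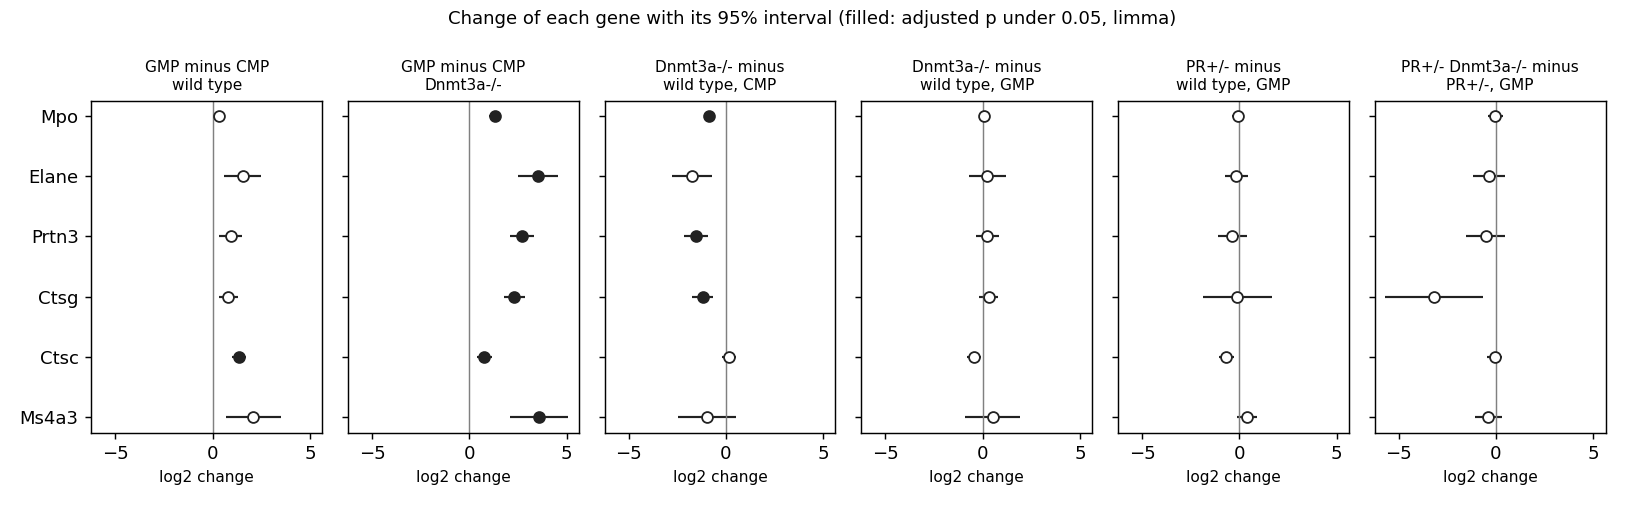
Log2 change of each gene (rows) in 6 comparisons (panels), with its 95% interval from the limma fit; filled points have an adjusted p under 0.05. All 6 genes are filled in the Dnmt3a-/- step from CMP to GMP, and Mpo, Prtn3 and Ctsg are filled on the lower side for Dnmt3a-/- against wild-type CMP.

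The third comparison set Dnmt3a-/- against wild-type CMP, and here the transcripts of the peroxidase and of a pair of the proteases were lower in the knockout. The Dnmt3a-/- CMP and GMP arrays have title numbers from 22298 to 22303, a set that holds no wild-type array. The labels do not explain these sets. Whatever the sets differ in can therefore not be told apart from the genotype, in CMP or in GMP. Mpo was at 11.59 to 11.80 in Dnmt3a-/- CMP against 12.29 to 12.71 in wild type and fell by 0.86 ± 0.13, a level 1.81-fold lower (adjusted p = 0.00618). Prtn3 was at 9.04 to 9.26 against 9.73 to 11.19 and fell by 1.54 ± 0.29 (2.90-fold, adjusted p = 0.0244). Ctsg was at 9.49 to 9.71 against 10.03 to 11.21 and fell by 1.19 ± 0.25 (2.29-fold, adjusted p = 0.0349). These 3 of 6 genes were called lower, where 57 genes or 0.361% of all were, and they were the 3 whose arrays did not overlap, where 13% of all genes did not overlap on the lower side. Elane (8.19 to 9.53 against 9.22 to 11.46) had a difference of -1.73 ± 0.48 (adjusted p = 0.109) and Ms4a3 (7.91 to 8.70 against 6.96 to 10.67) one of -0.98 ± 0.70 (0.590), and both overlapped only through wild-type CMP replicate 1. The difference of Ctsc was 0.16 ± 0.17, with a 95% interval from -0.21 to 0.54 (adjusted p = 0.753).

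Wild-type CMP replicate 1 resembled the Dnmt3a-/- CMP arrays in these genes: the mean of the 6 genes, each centred on its mean over all arrays, was -1.47 on it, 0.04 and 0.04 on the other wild-type CMP arrays and -1.36 to -1.65 on the Dnmt3a-/- CMP arrays. Without it, 5 genes were called lower in Dnmt3a-/- CMP, namely Elane (-2.47, adjusted p = 0.00130), Ms4a3 (-2.19, 6.74e-04), Prtn3 (-2.01, 5.27e-05), Ctsg (-1.56, 5.79e-04) and Mpo (-0.97, 0.00273). Without any 1 of the other 5 CMP arrays the calls of Prtn3 (adjusted p = 0.0608 to 0.110) and Ctsg (0.0853 to 0.140) were lost, while Mpo was called without each of the 6 arrays. With the Y-linked level as a covariate, Mpo (-0.87, adjusted p = 0.0591) and Ctsg (-1.40, 0.0904) were no longer called, with the median over probe sets Mpo was not (-0.73, 0.0523), with the brighter probe sets alone Ctsg was not (-0.91, 0.0724), and in 1 fit of all 19 arrays Ctsg was not (0.512). With the 2 CMP groups fitted alone none was called (adjusted p = 0.0689 for Mpo, 0.132 for Prtn3 and 0.140 for Ctsg). Markers of other cells moved with the same comparison, where 145 of 15781 genes were called higher. Of 8 measured megakaryocyte and platelet genes 6 were higher in Dnmt3a-/- CMP (list mean 7.51 to 7.90 per array against 6.08 to 6.21), of 10 dendritic cell genes 5 were (7.91 to 8.49 against 6.30 to 6.87), of 10 stem cell genes 4 were (6.47 to 6.59 against 5.94 to 6.32), and none in these lists was lower. The 7 erythroid genes had 0 calls (7.30 to 7.56 against 6.70 to 7.98). The part of these markers in the lower granule genes was not tested.

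Between Dnmt3a-/- and wild-type GMP none of the 6 genes was called, where 210 genes or 1.33% of all were. The differences were 0.09 ± 0.12 for Mpo, 0.24 ± 0.45 for Elane, 0.24 ± 0.27 for Prtn3, 0.31 ± 0.23 for Ctsg and 0.52 ± 0.65 for Ms4a3, with adjusted p between 0.481 and 0.791. The 95% intervals reached 0.35 for Mpo, 1.21 for Elane, 0.83 for Prtn3, 0.81 for Ctsg and 1.93 for Ms4a3. Their width draws on the CMP arrays too, which share the fit. Ms4a3 had an SD of 2.10 in wild-type CMP, against 0.22 in wild-type and 0.06 in Dnmt3a-/- GMP. Elane had an SD of 1.28 in wild-type CMP, against 0.10 in each of these GMP groups. None of the 5 genes was called in any of 18 alternative fits, among them that of the 2 groups alone. On all 3 Dnmt3a-/- arrays these 5 genes nonetheless lay above all 4 wild-type arrays, as 7.88% of all genes did. Ms4a3, for example, was at 11.94 to 12.06 in Dnmt3a-/- and at 11.26 to 11.74 in wild-type GMP. Ctsc ran the other way, at 7.79 to 8.29 against 8.37 to 8.84, with a difference of -0.43 ± 0.16 (adjusted p = 0.196), and 8.73% of all genes were placed lower in this way. In the same comparison 4 of 10 dendritic, 3 of 10 basophil and mast cell and 2 of 8 megakaryocyte genes were higher and 3 of 10 monocyte genes lower, and their part was not tested. With the Y-linked level as a covariate the differences of Elane, Prtn3 and Ms4a3 turned negative (-0.27, -0.17 and -0.41), and after quantile normalization that of Prtn3 did (-0.01). All Dnmt3a-/- arrays were low in Y-linked genes, so the covariate fit cannot separate sex from genotype.

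Other genes of the granule programme were taken from lists. Of 18 further azurophil and lysosomal proteins 14 were measured. In the wild-type step 5 of them rose, with a median change of 0.47 against 0.04 over all genes, and Arsb (arylsulfatase B, 1.04 ± 0.17), the sulfatase gene Galns and Ctsz (cathepsin Z, 0.81 ± 0.13) rose most. In the Dnmt3a-/- step 8 rose and none fell, led by Arsb (2.23 ± 0.19), Galns (1.87 ± 0.19) and Hexa (a hexosaminidase subunit, 1.01 ± 0.17). None of the 14 fell in Dnmt3a-/- CMP against wild type, and Lyz2 (lysozyme) rose there by 1.17 ± 0.24. The median of the list was -0.22 there, against -0.04 over all genes and -1.09 for the 6 genes.

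Genes that process or hold back the granule proteins were measured for 11 of 12. In the Dnmt3a-/- step 6 rose and 1 fell: Serpinb1a, an inhibitor of neutrophil elastase, cathepsin G and proteinase 3, rose by 1.80 ± 0.22, Slpi, an inhibitor of elastase and cathepsin G, by 1.24 ± 0.28, and Calr, the chaperone that holds newly made myeloperoxidase, by 0.99 ± 0.15. The one that fell was Lgmn (legumain, -0.66 ± 0.18). In the wild-type step Serpinb1a (0.89 ± 0.21) and Cstb (cystatin B, 0.68 ± 0.16) rose and Lgmn fell (-1.16 ± 0.17). Between Dnmt3a-/- and wild-type CMP 1 gene of the list was called, Cst3 (cystatin C), which rose by 1.07 ± 0.20, and in GMP none was.

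Of 12 transcription factors of the granulocyte and monocyte lines 11 were measured. Gfi1, a repressor needed for neutrophil formation, rose by 0.86 ± 0.21 in the wild-type and by 2.40 ± 0.22 in the Dnmt3a-/- step, and Spi1 (PU.1) by 0.53 ± 0.13 and 0.90 ± 0.14. In the Dnmt3a-/- step Cebpe, a factor of late granulocyte genes, rose by 3.34 ± 0.64 and Ets1 by 1.51 ± 0.34, while Irf8, which favours the monocyte line, fell by 1.24 ± 0.26. None of the 11 was called between Dnmt3a-/- and wild-type CMP, where the granule genes were low (median -0.07). In GMP, Ets1 (1.53 ± 0.32) and Gfi1 (0.98 ± 0.21) were higher in Dnmt3a-/- and Irf8 (-1.18 ± 0.24) was lower.

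Secondary granule and neutrophil maturation genes act at a later stage. Of 14 measured, 4 were higher in Dnmt3a-/- than in wild-type CMP, as 145 of 15781 genes were, and none lower (median 1.44). Chil3 rose by 2.17 ± 0.40, Retnlg by 2.03 ± 0.39 and S100a9 by 0.87 ± 0.17. The list mean was 10.61, 9.21 and 9.07 on Dnmt3a-/- CMP replicates 1 to 3 and 8.33 to 8.42 in wild-type CMP. In GMP 5 were higher in Dnmt3a-/- (median 1.17), where 142 of 15781 genes were. The 5 included Chil3 (3.04 ± 0.38), Retnlg (1.73 ± 0.37) and Camp (1.70 ± 0.32). Of 10 monocyte genes 3 fell in Dnmt3a-/- CMP, F13a1 by 2.15 ± 0.25, Csf1r by 1.71 ± 0.18 and Ly86 by 1.02 ± 0.20, and 3 fell in GMP (Ly86, Irf8 and Csf1r). Eosinophil and basophil genes rose from CMP to GMP in both genotypes: of 5 measured eosinophil genes 3 rose in wild type and 4 in Dnmt3a-/-, led by Prg2 (4.47 ± 0.70 and 5.91 ± 0.75), and of 10 basophil and mast cell genes 5 and 6 rose. Epx, the eosinophil peroxidase gene that lies close to Mpo, rose by 2.75 ± 0.43 and 3.95 ± 0.46.

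**Figure D3:**
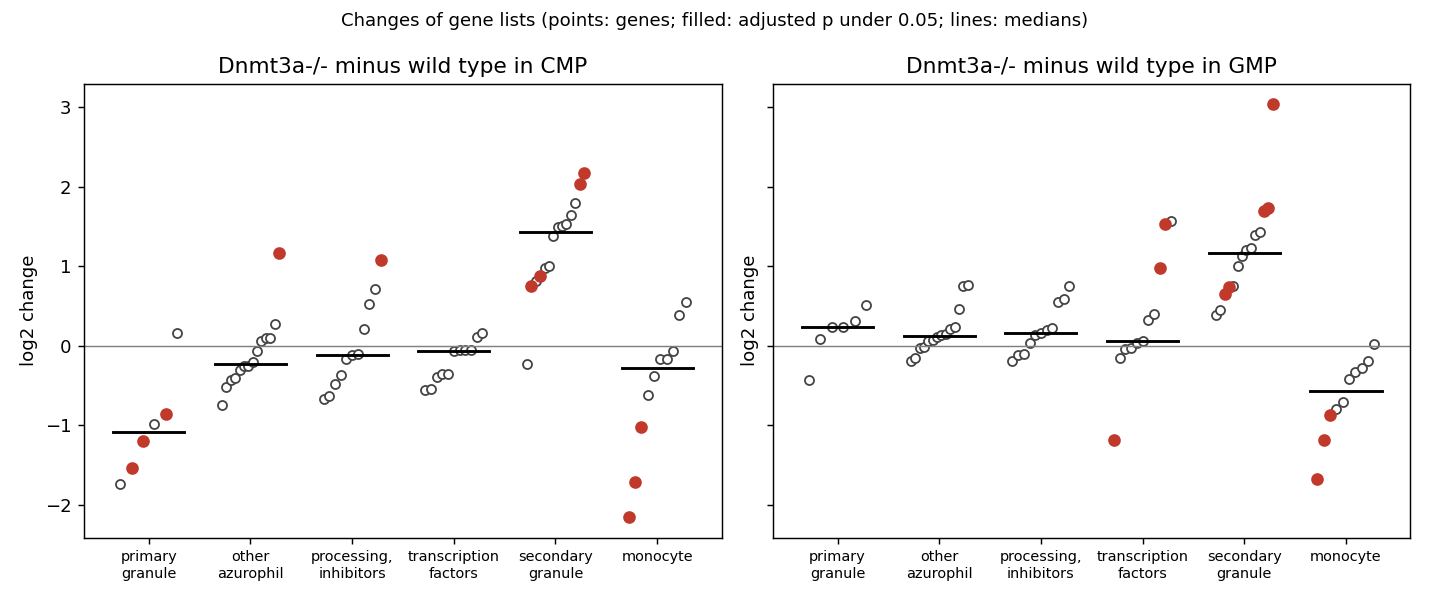
Log2 change between Dnmt3a-/- and wild-type cells in CMP (left) and GMP (right) for the genes of 6 lists (horizontal axis), with a point per gene, filled where the adjusted p is under 0.05, and a line at the median of each list. In CMP the median of the 6 primary granule genes is -1.09 and that of the secondary granule genes is 1.44.

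Between PR+/- and wild-type GMP none of the 6 genes was called, where 484 genes or 3.07% of all were. The arrays with the fusion are labelled in a different style from the wild-type ones, and a separate array run and the genotype cannot be told apart. Ctsc was at 7.83 and 7.92 against 8.37 to 8.84 in wild-type GMP, a difference of -0.66 ± 0.19 (adjusted p = 0.0749). Ctsc alone of the 6 was below all wild-type GMP arrays, as 12.3% of all genes were. Ms4a3 (11.83 and 11.90 against 11.26 to 11.74) alone was above all of them, as 16.1% of all genes were, by 0.39 ± 0.25 (adjusted p = 0.462). The difference of Ctsc was called in 4 of 16 alternative fits, among them the fit of all 19 arrays (adjusted p = 0.0337). The differences were -0.06 ± 0.14 for Mpo, -0.15 ± 0.28 for Elane, -0.36 ± 0.34 for Prtn3 and -0.10 ± 0.82 for Ctsg, whose interval ran from -1.87 to 1.68. That width draws on the PR+/- Dnmt3a-/- GMP arrays, which share the fit and had an SD of 1.96 for Ctsg. In the groups compared its SD was 0.20 (wild-type GMP) and 0.06 (PR+/- GMP). Without PR+/- replicate 2 the difference of Mpo was 0.06, and without replicate 1 that of Elane was 0.01. Of the azurophil and lysosomal list, Man2b1 (alpha-mannosidase, 1.03 ± 0.18) and Fuca1 (alpha-fucosidase, 0.85 ± 0.20) were higher in PR+/- GMP, and of the transcription factors Ets1 was higher (1.47 ± 0.23) and Irf8 lower (-1.97 ± 0.42). Of 10 basophil and mast cell genes 5 were higher in PR+/- GMP and none lower, and of 10 monocyte genes 1 was higher and 3 were lower, and their part in these values was not tested.

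Loss of Dnmt3a in PR+/- GMP was compared over 6 arrays, and no gene of 15781 was called (0% of all; 1256 had an unadjusted p under 0.05, limma). Within the 6 genes 1 stood out in size. Ctsg was at 11.53 and 11.44 on the PR+/- arrays and at 7.96, 11.12, 6.59 and 7.56 on the PR+/- Dnmt3a-/- arrays. All 4 lay below both PR+/- arrays, as 12.3% of all genes did, and 3 of them lay far below. The difference was -3.18 ± 1.08, or 9.06-fold lower (unadjusted p = 0.0197, adjusted p = 0.620, limma), with a 95% interval from -5.69 to -0.67. The other 5 genes overlapped between the groups, with differences of -0.53 ± 0.43 for Prtn3, -0.38 ± 0.29 for Ms4a3, -0.37 ± 0.35 for Elane, -0.07 ± 0.16 for Ctsc and -0.04 ± 0.17 for Mpo.

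The 4 PR+/- Dnmt3a-/- arrays fell apart in Ctsg. Replicates 1, 3 and 4 were below the PR+/- mean by 3.53, 4.89 and 3.92, and on each of them all 9 Ctsg probe sets were lower than on any of the 9 other GMP arrays, where Ctsg spanned 11.30 to 11.95. On replicate 2 the gene was lower by 0.37, and 8 of its 9 probe sets were below those arrays. Without replicate 2 the group mean was 7.37 ± 0.70 and the difference to PR+/- GMP was -4.12, and without replicate 3 the difference was -2.61. Replicate 2 is the array with low Y-linked genes, and it shares high immediate early genes with replicate 1, where Ctsg was low. Dnmt3a itself was at 6.26 on replicate 2 and at 5.82 to 6.22 on the others. Whether the animal, its sex or the sample accounts for the split was not tested.

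Elane, Prtn3 and Ms4a3 split the 4 arrays in another way. Prtn3 was at 9.998 and 10.29 on replicates 1 and 2 and at 11.59 and 11.06 on replicates 3 and 4. Elane was at 10.96 and 11.62 on the first pair and at 12.29 and 12.00 on the second, and Ms4a3 at 10.99 and 11.17 against 11.93 and 11.83. Replicates 1 and 2, with high immediate early genes, were thus the lower ones for these 3 genes, and without them the differences to PR+/- GMP were 0.05 for Elane, 0.06 for Prtn3 and 0.02 for Ms4a3, against -4.41 for Ctsg. Ctsc had the same order with smaller gaps, at 7.77 and 7.60 on replicates 1 and 2 and at 7.95 and 7.89 on replicates 3 and 4. Mpo did not, with its lowest and its highest value (12.62 and 12.92) both on the first pair.

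**Figure D4:**
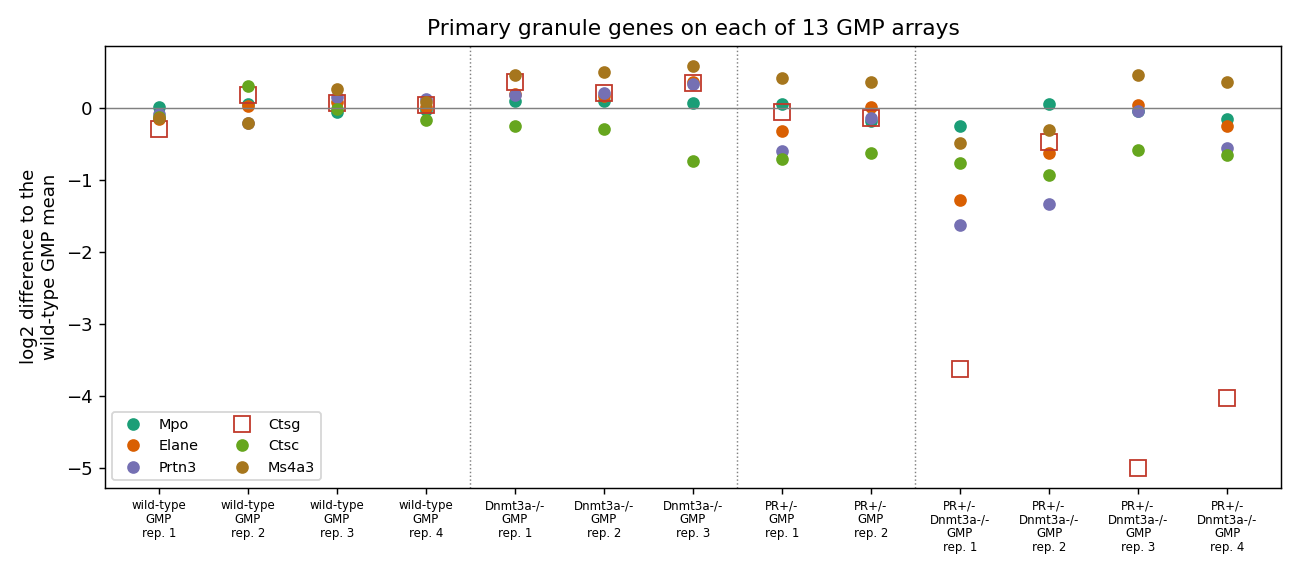
Log2 difference of each of the 6 genes to its mean on the wild-type GMP arrays (vertical axis) on each of 13 GMP arrays (horizontal axis); open squares are Ctsg. On PR+/- Dnmt3a-/- replicates 1, 3 and 4 the squares lie far below the other 5 genes, and on replicate 2 they do not.

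Against Dnmt3a-/- GMP without the fusion, Ctsg was called lower in PR+/- Dnmt3a-/- GMP by 3.58 ± 0.73, or 12.0-fold (adjusted p = 0.0323), the only one of the 6, where 88 genes or 0.558% of all were called lower. This comparison shares its PR+/- Dnmt3a-/- arrays with the one above. The call was lost without PR+/- Dnmt3a-/- replicate 1 (-3.47, adjusted p = 0.0904) or 4 (-3.34, 0.0817) and without Dnmt3a-/- GMP replicate 1, 2 or 3 (-3.56, -3.63 and -3.57, adjusted p = 0.129, 0.105 and 0.105). It was also lost after quantile normalization (-3.33, 0.0678) and with the 2 groups alone (0.134), and without PR+/- Dnmt3a-/- replicate 2 the difference was -4.52 (1.29e-05). That array had the highest Ctsg of its group (11.12 against 6.59 to 7.96), so leaving it out favours a call. For 5 of the 6 genes, all but Ctsc, the PR+/- Dnmt3a-/- arrays lay wholly below the Dnmt3a-/- arrays, as 6.69% of all genes did. In the same comparison 5 of 10 dendritic cell genes fell (list mean 4.88 to 5.29 per array against 6.21 to 6.38), 2 of 10 monocyte genes fell (6.21 to 6.58 against 6.79 to 7.04), and the 10 basophil and mast cell genes had 4 calls higher and 1 lower (7.63 to 8.31 against 7.56 to 8.06), and their part in these values was not tested. Prtn3 differed by -1.13 ± 0.30 (adjusted p = 0.0990) and Elane by -0.77 ± 0.24 (0.164), and both were called without PR+/- Dnmt3a-/- replicate 3 (-1.41, 0.0101, and -0.96, 0.0458), Prtn3 also with array weights (-0.91, 0.0415). The test of whether the effect of Dnmt3a loss differed between PR+/- and PR wild-type GMP called 5 genes (0.0317% of all), none of them a member. For Ctsg that difference was -3.49 ± 1.10 (adjusted p = 0.230, limma). Of 13 fits without 1 array, 12 gave no call for Ctsg (adjusted p up to 0.526). The fit that gave a call left out PR+/- Dnmt3a-/- replicate 2 (-4.42, 0.00160). Without the 5 arrays of high immediate early genes, which include replicate 2, the difference was -4.66 (0.00534). Since replicate 2 had the highest Ctsg of its group, these 2 calls follow in part from leaving it out.

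The genes that lie next to Ctsg on chromosome 14 were looked at for the same split. Mcpt8, a basophil serine protease gene that is next to it on one side, was at 11.41 to 12.00 on the PR+/- Dnmt3a-/- arrays and at 11.67 to 11.77 on the PR+/- arrays, a difference of 0.11. Gzme, Gzmd and Gzmg on the other side had low means over the 19 arrays (2.84, 2.56 and 2.77) and differences of 0.41, -0.26 and 0.14. Mcpt8 did not share the low values of Ctsg.

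The genes were also compared with each other across the 19 arrays. Pearson's r, given as a description over arrays that share their groups, was 0.95 between Elane and Ms4a3 and 0.94 between Elane and Prtn3, and lay between 0.84 and 0.95 for all pairs of Mpo, Elane, Prtn3 and Ms4a3. It was 0.63 to 0.72 for Ctsc with these 4 genes and 0.23 to 0.43 for Ctsg with each of the others. Over the 15 arrays without PR+/- Dnmt3a-/- GMP it lay between 0.73 and 0.98 for Ctsg and between 0.67 and 0.74 for Ctsc. Among 2252 genes outside the 6 with an SD of at least 0.5, the 10 most like the mean of the 6 centred genes over 19 arrays were B4galt6 (r = 0.95), Alas1 (0.95), Clec12a (0.94), Tfec (0.94), Lta4h (0.93), Agps (0.93), Idh1 (0.93), Igsf6 (0.93), Anxa3 (0.92) and Ptgr1 (0.92). Alas1 encodes the first enzyme of haem synthesis, and its means were 9.34 in wild-type CMP, 10.46 in wild-type GMP, 7.76 in Dnmt3a-/- CMP, 10.74 in Dnmt3a-/- GMP, 10.30 in PR+/- GMP and 10.01 in PR+/- Dnmt3a-/- GMP. B4galt6, a galactosyltransferase gene of glycolipid synthesis, had means of 7.58, 9.21, 5.63, 9.86, 9.15 and 8.65 in the same order of groups. Both were lowest in Dnmt3a-/- CMP and highest in Dnmt3a-/- GMP, as Mpo, Elane, Prtn3 and Ms4a3 were. They were picked for their likeness to the 6 genes on these same arrays, so their order is no separate result. Of the 10, Tfec alone was not highest in Dnmt3a-/- GMP (9.30 against 9.56 in wild-type GMP).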

How the data were processed

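RNA of sorted progenitors was read on 19 mouse exon arrays. The deposited values are linear intensities of 194293 exon-level probe sets, already on a common scale (array medians 53.0 to 56.8). RMA, Partek and the mm9 build are named in the submitters' processing notes with no role or version. Log2 was taken, and the mean over the probe sets carrying 1 symbol alone (179496, against 1328 with several and 13469 with none) gave 15781 genes, 2040 of them under an updated symbol. Genes were fitted with limma 3.58.1 in R 4.3.3 (lmFit and eBayes, two-sided), with Benjamini-Hochberg adjustment over all genes and a threshold of 0.05. The 4 wild-type and Dnmt3a-/- groups shared a fit of 13 arrays, PR+/- Dnmt3a-/- against PR+/- used its 6 arrays, and the last 3 comparisons used the 13 GMP arrays. Values after ± are standard errors for changes and SDs for levels. The number of arrays limits the precision. The fits were tested on simulated data.

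The 6 genes and the lists were chosen with earlier results of these data known. From each list up to 3 called genes per comparison were named by the size of their change, as were the 10 genes most like the 6 in pattern. Spi1, Irf8 and Lgmn in the Dnmt3a-/- step, and the genes around Prtn3, Elane and Ctsg, were named outside that rule after their values were seen. Alternatives were the median or the brighter part of the probe sets, an added 16, quantile normalization, median centring, a minimum mean log2 of 4, array weights, other sets of arrays in the fit, each array left out, the 5 arrays of high immediate early genes left out, the Y-linked level as a covariate, and title numbers or replicate numbers as blocks.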

Additional observations from a re-analysis of the deposited data

How the results depend on the processing

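The 54 changes of single genes (11 called) were recomputed to 1014 alternative values. Of these, 925 kept their direction and side of the threshold, 45 gained a call, 28 lost one and 16 changed sign, none of the 16 belonging to a called change. Sign changes in Dnmt3a-/- against wild-type GMP were Elane -0.27, Prtn3 -0.17 and Ms4a3 -0.41 with the Y-linked covariate and Prtn3 -0.0072 after quantile normalization. In PR+/- Dnmt3a-/- against PR+/- GMP they were Mpo 0.0059 with the brighter probe sets, Ctsc 0.028 with the median over probe sets and 0.019 after quantile normalization, and Elane 0.054, Prtn3 0.062, Ctsc 0.049 and Ms4a3 0.019 without the 5 arrays of high immediate early genes. Leaving out 1 array gave Mpo -0.157 to 0.0869 there, and in PR+/- against wild-type GMP Mpo -0.185 to 0.0589 and Elane -0.312 to 0.0100. Ctsg was at 0.024 in that comparison with the median over probe sets.

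The mean change of the 6 genes moved by less than its spread in 159 of 169 alternatives. It was 1.18 in the wild-type step and 2.14 within title numbers 21986 to 21988, and 2.37 in the Dnmt3a-/- step, 2.08 with the brighter probe sets and 2.18 after quantile normalization. The difference of the steps was 1.18, with 0.93 to 1.69 on leaving out 1 array and 1.64 without the 5 arrays. Dnmt3a-/- against wild-type GMP gave 0.16, with 0.085 for the brighter probe sets, -0.020 after quantile normalization and -0.19 with the Y-linked covariate. Quantile normalization gave -0.30 against -0.16 for PR+/- against wild-type GMP and -0.59 against -0.92 for the difference of the Dnmt3a effects. The cause was not tested. On leaving out 1 array the mean ran from 0.68 to 1.44 in the wild-type step and from -1.53 to -0.77 in Dnmt3a-/- against wild-type CMP.

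The genes called over the whole array numbered 678 (258 to 1049 over the alternatives) and 1590 (968 to 3853) for the steps, 0 (0 to 48) for their difference, 202 (61 to 1064) and 210 (48 to 1733) for Dnmt3a-/- against wild type in CMP and GMP, 0 (0 to 21) for PR+/- Dnmt3a-/- against PR+/-, 484 (43 to 1045) for PR+/- against wild type, 195 (45 to 935) for PR+/- Dnmt3a-/- against Dnmt3a-/- and 5 (4 to 40) for the difference of the Dnmt3a effects. With the replicate block in PR+/- Dnmt3a-/- against PR+/- GMP the mean of the 6 genes was -0.81 against -0.76, Ctsg was at -1.95 (adjusted p = 0.319, limma) and 0 genes were called. The block value rests on replicates 1 and 2, since replicates 3 and 4 have no PR+/- array of the same number. In the labels, only the number links samples of the same number. Their deviations from the group means had correlations of 0.077 and 0.017. With 2 PR+/- arrays the deviations mirror each other, so these correlations cannot decide whether the samples are paired.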
